A study of Homo sapiens with 4 samples.

Results

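The chromatin contacts of 2 genes on the long arm of chromosome 3, HES1 and BCL6, were followed in A673 cells, an Ewing sarcoma line driven by the EWS-FLI1 fusion. Contacts came from SMC1 HiChIP, in which DNA ends that lie close together are ligated and those bound by SMC1, a core cohesin subunit, are precipitated. Each contact is a pair of anchors with a count of paired-end tags (PETs). A pair was taken where an anchor overlapped positions 193845000 to 193860000 (HES1) or 187435000 to 187470000 (BCL6) of chromosome 3 in hg19. This gave 113 pairs with 565 PETs for HES1 and 79 pairs with 229 PETs for BCL6, together 192 of the 1125468 pairs that held a PET in at least 1 library. That presence of a PET is the measured value that entered the choice of pairs. The 2 genes themselves were picked with the higher level of distal chromosome 3 contacts in STAG2-null cells already known, so the direction of a difference scaled by library is described here and supports nothing.

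The groups were 2 libraries with the genotype STAG2-null, from cells edited at STAG2 with Cas9 and grown as single-cell clones, and 2 wild-type (WT) libraries of the same line. STAG2 is 1 of the alternative STAG subunits of cohesin. The labels do not say how many clones were used or whether libraries of a group were separate cultures, and the p-values therefore speak for differences among 4 libraries, whose spread could be technical. Transcripts were not measured, so neither the loss of STAG2 nor the cell type could be checked. Libraries held between 661881 and 765017 PETs. Distal 3q, the pairs with both midpoints above 150 Mb of chromosome 3, held 1.17% and 1.27% of PETs in STAG2-null 1 and 2 and 0.844% and 0.847% in wild-type 1 and 2, a log2 ratio of 0.53 between the group means. A higher number of copies of the region and more contacts per copy cannot be told apart in these counts.

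HES1 is a basic helix-loop-helix repressor and a direct target of Notch signalling, in which the cleaved receptor joins the DNA-binding protein RBPJ at target promoters. HES1 binds N boxes, also in its own promoter, which it represses. BCL6 is a zinc finger repressor with a BTB domain that recruits corepressors such as BCOR, and it is best known from germinal centre B cells and lymphoma. In Ewing sarcoma the fusion acts through ETS sites with a GGAA core, and cohesin holds loops between promoters, enhancers and CTCF sites.

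The promoters are shown because, in the authors' deposited table, each gene is named at the anchor that carries most of its contacts, and because that table flags the HES1 anchor for FLI1 and the BCL6 anchor not. They are the 250 bases before the start in RefSeq on GRCh38.p14, matched by gene name, and their place within the hg19 anchors was not tested. HES1 lies at chr3:194135898-194136147 on the plus strand. BCL6 has 2 starts on the minus strand, with windows at chr3:187745469-187745718 and chr3:187736502-187736751. Capitals mark the RBPJ core TGGGAA and the N box CACNAG, searched on both strands.
HES1: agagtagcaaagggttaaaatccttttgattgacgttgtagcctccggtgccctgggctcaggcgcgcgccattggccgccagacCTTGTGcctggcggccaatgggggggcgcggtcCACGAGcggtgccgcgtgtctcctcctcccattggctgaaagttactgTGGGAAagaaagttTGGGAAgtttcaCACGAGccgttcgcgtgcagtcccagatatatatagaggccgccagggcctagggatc
BCL6 start 1: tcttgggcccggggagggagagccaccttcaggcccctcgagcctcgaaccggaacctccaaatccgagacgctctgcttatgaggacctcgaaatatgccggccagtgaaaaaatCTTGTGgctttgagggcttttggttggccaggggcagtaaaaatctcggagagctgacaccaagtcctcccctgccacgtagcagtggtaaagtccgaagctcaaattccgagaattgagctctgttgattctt
BCL6 start 2: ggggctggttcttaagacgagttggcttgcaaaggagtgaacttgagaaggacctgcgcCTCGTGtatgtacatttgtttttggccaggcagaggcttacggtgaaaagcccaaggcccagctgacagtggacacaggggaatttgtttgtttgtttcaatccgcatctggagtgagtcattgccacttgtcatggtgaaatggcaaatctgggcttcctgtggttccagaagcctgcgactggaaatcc

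The HES1 window held 2 RBPJ cores and 3 N boxes. As many RBPJ cores were found in 2.90% and as many N boxes in 0.911% of 35116 RefSeq start windows of the same length. Each BCL6 window held 0 RBPJ cores and 1 N box, the latter a level met in 32.0% of windows. GGAA, which is part of every TGGGAA, occurred 2 times at HES1, 2 times at BCL6 start 1 and 4 times at BCL6 start 2, against a median of 3 over all windows. The spaced palindrome TTCNNNGAA, the form shared by STAT and BCL6 sites, was found 1 time in the window of BCL6 start 1, 0 times at HES1 and 0 times at BCL6 start 2. It was present in 6.57% of all windows. The first 50 bases after BCL6 start 1 held 2 more, read from chr3:187745442-187745466 and chr3:187745419-187745440 with the palindrome in capitals. At least 1 match in those first 50 bases was found in 0.968% of windows, and the share with 2 was not counted.
BCL6 site 1: aactggggTTCTTAGAAgtggtgat
BCL6 site 2: caagaagtTTCTAGGAAaggcc

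Summed over its 113 pairs, the HES1 locus held 156 PETs in STAG2-null 1 and 185 in STAG2-null 2, against 111 in wild-type 1 and 113 in wild-type 2. Scaled to 1000000 PETs of the library these were 228 and 265 against 168 and 148. The means were 247 ± 25.8 and 158 ± 14.1 (SD, n = 2), a log2 ratio of 0.64 ± 0.15 (SE of the fit). The locus passed the threshold in edgeR's quasi-likelihood test over 37715 features, the 25-kb windows of the genome and the 2 loci (adjusted p = 0.00433), in which 0.962% of features were higher and 1.38% lower in STAG2-null cells.

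The BCL6 locus held 67 and 77 PETs in STAG2-null 1 and 2 and 35 and 50 in wild-type 1 and 2. On the same scale these were 98.1 and 110.3 against 52.9 and 65.4. The means were 104 ± 8.61 and 59.1 ± 8.82 (SD, n = 2), and the log2 ratio of 0.80 ± 0.21 had an adjusted p of 0.0166 in the same edgeR test. Leaving out any 1 of STAG2-null 1, STAG2-null 2, wild-type 1 or wild-type 2 ended both calls, with log2 ratios of 0.54 to 0.75 for HES1 (adjusted p from 0.0602 to 0.598 in edgeR) and 0.68 to 0.97 for BCL6 (0.143 to 0.598). DESeq2 gave 0.64 for HES1 with an adjusted p of 0.0554.

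**Figure D1:**
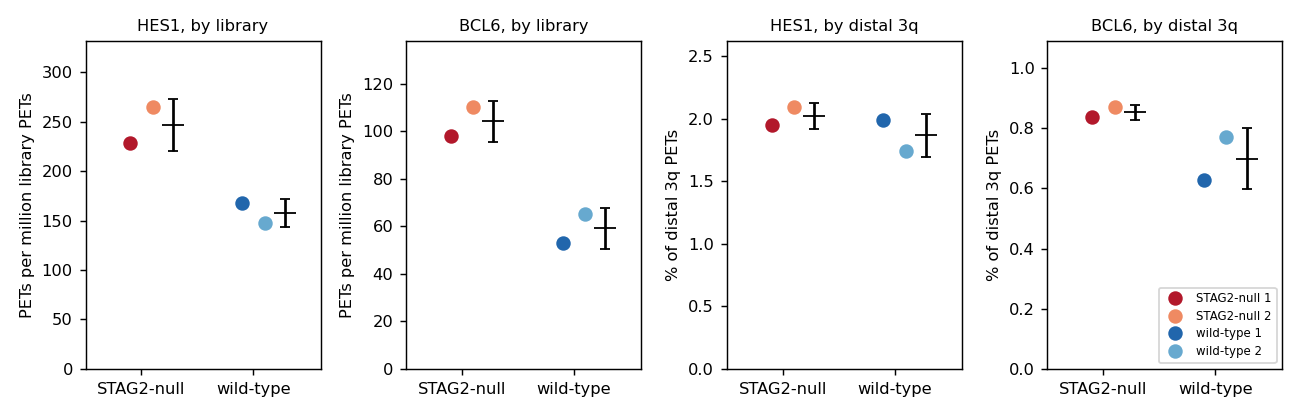
PETs of all pairs at the HES1 and BCL6 loci in each library, per 1000000 library PETs (left pair of panels) and as a percentage of distal 3q PETs (right pair). Points are libraries and bars are mean ± SD of 2 libraries. On the library scale HES1 stood at 228 and 265 in STAG2-null and at 148 and 168 in wild-type libraries. The HES1 points overlap on the distal 3q scale.

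Measured against the region that holds them, the loci differed less. HES1 took 1.95% and 2.09% of distal 3q PETs in STAG2-null 1 and 2 and 1.99% and 1.74% in wild-type 1 and 2, so wild-type 1 lay between the STAG2-null libraries. The log2 ratio on this scale was 0.12 ± 0.12, with an approximate 95% interval, from the SE of the fit, of -0.11 to 0.36. BCL6 took 0.836% and 0.871% in STAG2-null 1 and 2 and 0.627% and 0.771% in wild-type 1 and 2. The log2 ratio for BCL6 was 0.28 ± 0.20, with an interval of -0.11 to 0.67. Neither locus passed in edgeR over the 647 features of distal 3q (adjusted p = 0.896 and 0.798), a test that called 0.155% of these features higher and 0 lower. Without adjustment (p under 0.05), and in DESeq2, 0 of the 2 loci passed as well. These intervals do not show that the loci followed the region exactly: HES1 could differ from it by a log2 of up to 0.36 and BCL6 by up to 0.67.

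On the library scale the median 25-kb window of distal 3q stood at a log2 ratio of 0.50, against 0.01 for all windows. Of the 647 features of the region, 50 were called higher. HES1 lay above 63.8% and BCL6 above 77.4% of them. The loci were picked from this region for this direction, so their place is a description.

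**Figure D2:**
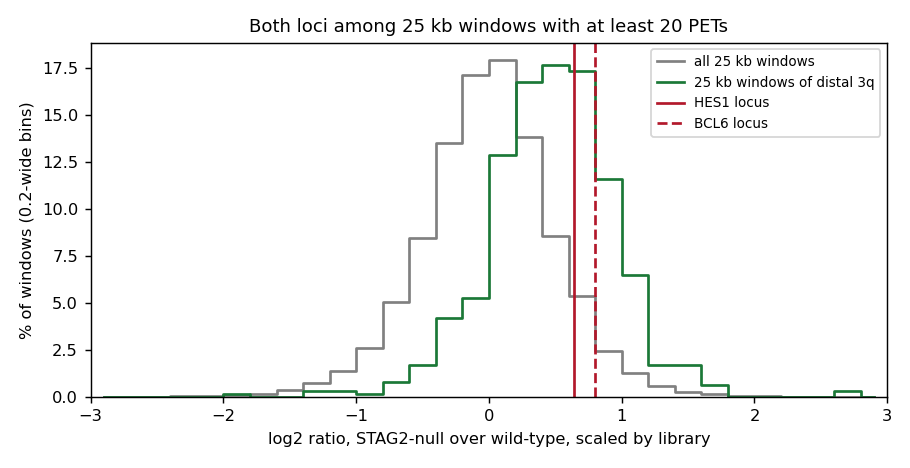
Distribution of log2 ratios (STAG2-null over wild-type, scaled by library) of 25-kb windows with at least 20 PETs, for the genome (grey) and distal 3q (green), in bins 0.2 wide on the x axis with the percentage of windows on the y axis. The vertical lines mark HES1 at 0.64 and BCL6 at 0.80, both inside the shifted distribution of distal 3q, whose median was 0.50.

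Each locus had 2 anchors, and in each the one that the authors' deposited table names for the gene's start carried most PETs. The HES1 promoter anchor, at positions 193849347 to 193861135, is flagged there for CTCF, FLI1, H3K27ac and a promoter. It met 76 partner anchors with 458 PETs, more than 98.7% of the 79850 anchors of the files. Its PETs were 127 and 156 in STAG2-null 1 and 2 and 87 and 88 in wild-type 1 and 2. It rose by a log2 of 0.73 ± 0.16 (adjusted p = 0.00510 in edgeR over 60425 anchors, of which 0.412% were higher), and stood at 0.21 ± 0.18 with distal 3q as the library size, then not past the threshold. Without 1 library at a time it stood between 0.59 and 0.86, and each of the 4 omissions ended the call (adjusted p from 0.0798 to 0.311 in edgeR), as did DESeq2 (0.859). The neighbouring anchor at 193844740 to 193848301, with 38 partners, held 43, 51, 29 and 38 PETs in the same order, a log2 ratio of 0.53 ± 0.25 that did not pass (adjusted p = 0.365).

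The BCL6 promoter anchor, at 187455047 to 187467184, is flagged in the authors' deposited table for CTCF, H3K27ac and a promoter and not for FLI1. It met 62 partners with 205 PETs, more than 94.0% of anchors. It held 58 and 68 PETs in STAG2-null 1 and 2 and 33 and 46 in wild-type 1 and 2. The log2 ratio of 0.71 ± 0.23 missed the threshold (adjusted p = 0.0956 in edgeR) and was 0.19 ± 0.24 with distal 3q as the library size. The second anchor of the locus, at 187436359 to 187438092, held 35 PETs over the 4 libraries (log2 0.97 ± 0.52, adjusted p = 0.450). Of the 4 anchors, 1 was thus called on the library scale and 0 with distal 3q as the library size, 0 also unadjusted.

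HES1 contacts were spread over both sides of the gene and gathered at a few places. The 3 partners with most PETs took 30.7% of the 511 PETs to partners outside the locus. One lay 177 kb toward higher coordinates (56 PETs), one 353 kb (53 PETs) and one 239.7 kb (48 PETs) toward lower coordinates. The share of PETs toward higher coordinates, which is downstream of HES1, was 45.8% and 49.7% in STAG2-null 1 and 2 and 44.3% and 47.0% in wild-type 1 and 2, with overlap. Neighbouring genes listed from RefSeq, nearest first, are LOC102724877, OPA1 (a mitochondrial fusion gene) and ATP13A4 on the lower side. On the higher side they are CPN2, LRRC15 and GP5. LSG1, through the authors' deposited table, is the single gene placed at a partner outside either locus, 537 kb from HES1 and with 2 PETs, both in STAG2-null 1.

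**Figure D3:**
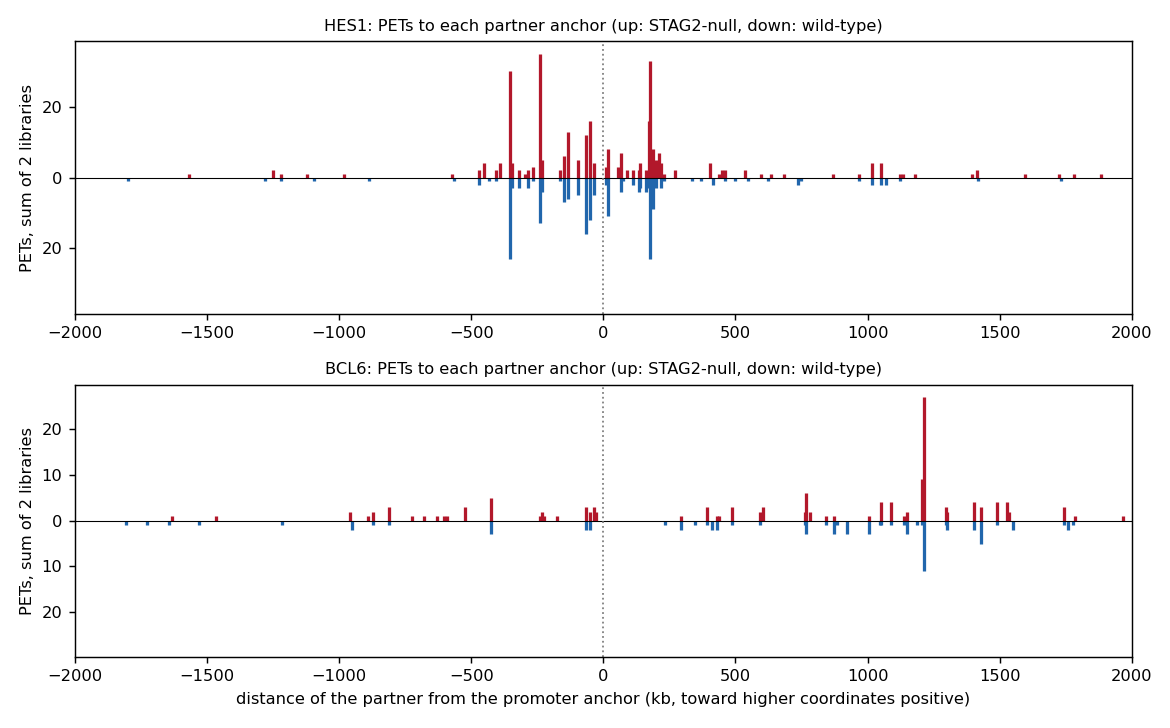
PETs from each locus to every partner anchor outside it, summed over the 2 libraries of a genotype (STAG2-null upward in red, wild-type downward in blue), by distance from the promoter anchor in kb. HES1 contacts stand mainly within 500 kb on both sides, while the tallest BCL6 contact lies 1213 kb away toward higher coordinates, with 27 against 11 PETs.

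The contact of the HES1 promoter anchor at 239.7 kb had the largest log2 ratio between genotypes among the 7 loops, that is pairs with at least 20 PETs over the 4 libraries, which were 6 at HES1 and 1 at BCL6. Its partner, at 193611414 to 193619631, is flagged in the authors' deposited table for FLI1 and H3K27ac and not for CTCF. The loop held 18 PETs in STAG2-null 1, 11 in STAG2-null 2, 7 in wild-type 1 and 2 in wild-type 2. Both STAG2-null libraries lay above both wild-type ones on the library scale, an arrangement found in 22.7% of all loops. The log2 ratio was 1.61 ± 0.54 (unadjusted p = 0.00278, adjusted p = 0.218 in edgeR over 11872 loops, of which 0.0927% were called higher) and 1.19 ± 0.55 with distal 3q as the library size. Without wild-type 1 it was 2.81 and without wild-type 2 it was 0.92. The neighbouring HES1 anchor added 1, 5, 4 and 0 PETs to the same partner.

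Beside the 177-kb contact stood a weaker one. The stronger partner, at 194028904 to 194034661, is flagged for CTCF and H3K27ac in the authors' deposited table. Its loop to the promoter anchor held 9 and 19 PETs in STAG2-null 1 and 2 and 13 and 6 in wild-type 1 and 2, with overlap and a log2 ratio of 0.50 ± 0.45. It stood at 0.069 with distal 3q as the library size, and turned to -0.081 without STAG2-null 2 and -0.018 without wild-type 2. The next anchor, at 194025657 to 194027693, ends 1.21 kb before it and carries none of the flags. Its contact to HES1 held 4 and 10 PETs in STAG2-null 1 and 2 and 1 and 1 in wild-type 1 and 2, 14 against 2. The ratio of library shares was 7.23, with an exact 95% binomial interval of 1.66 to 65.6. As a share of distal 3q PETs the contact had a ratio of 5.01 (1.15 to 45.4). With 16 PETs it lay below the minimum for loops, and with a minimum of 10 its log2 ratio was 2.64 ± 0.89 (adjusted p = 0.395 in edgeR). Over both partners, and both anchors of HES1, the sums were 16 and 33 PETs against 16 and 10, a ratio of library shares of 1.95 (1.19 to 3.26). Distal 3q as a whole had a ratio of 1.44 on this scale, inside that interval. The pairing of the strongest partner with its neighbour was made after the values were seen. With anchors merged within 5 kb the HES1 side grew to the span 193844740 to 193866281, which takes in an anchor outside the HES1 window. The partner grew to the span 194025657 to 194074211. The merged contact held 32 and 46 PETs against 22 and 19 (log2 1.0 ± 0.29, adjusted p = 0.173 in edgeR on the library scale). It was not scaled by distal 3q.

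None of the other HES1 loops passed the test either. The short loop between the 2 anchors of the locus, 8.72 kb long, was the strongest, with 14 and 22 PETs in STAG2-null 1 and 2 and 5 and 13 in wild-type 1 and 2 (log2 0.94 ± 0.43, adjusted p = 0.432 in edgeR). Without wild-type 2 its log2 was 1.70 and without wild-type 1 it was 0.49. The 353-kb loop held 7, 16, 7 and 11 PETs (0.30 ± 0.48) and turned to -0.13 with distal 3q as the library size. Loops of 49.2 and 66.4 kb toward lower coordinates held 7, 5, 4 and 5 PETs and 2, 8, 5 and 5 PETs, at 0.36 ± 0.65 and -0.05 ± 0.67. The latter stood at 20 PETs and the former at 21, just inside the minimum, and the next pairs below it held 16. One of these, 16.7 kb toward higher coordinates, had 3, 4, 4 and 5 PETs.

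**Figure D4:**
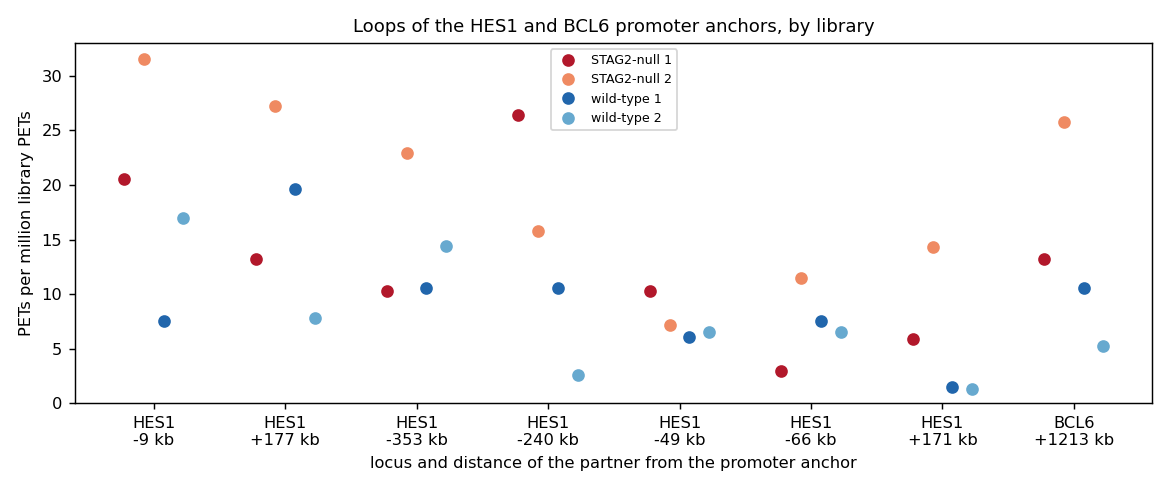
PETs per 1000000 library PETs of the 7 loops with at least 20 PETs and the HES1 contact at 171 kb, in each of the 4 libraries (points, colour by library), by locus and distance of the partner in kb. The groups lie apart at the HES1 loops at -240 and -49 kb and at -9 kb, at the contact at 171 kb and at the BCL6 loop at 1213 kb, and overlap at the others.

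BCL6 reached much farther, and mostly to 1 side. Its strongest contact joined the promoter anchor to positions 188671586 to 188675928, at 1213 kb. The authors' deposited table names BCL6, LPP, AC022498.1 and TPRG1 for this loop and flags this partner for CTCF and for neither FLI1 nor H3K27ac. Of the 52360 pairs of the genome whose length is within 10% of this one, 2 held at least as many PETs, this pair included. It held 9 and 18 PETs in STAG2-null 1 and 2 and 7 and 4 in wild-type 1 and 2. The groups lay apart, with a log2 ratio of 1.23 ± 0.52 (unadjusted p = 0.0192, adjusted p = 0.410 in edgeR) and of 0.80 ± 0.53 with distal 3q as the library size. Without STAG2-null 2 it was 0.70 and without wild-type 1 it was 1.75.

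An anchor that ends 4.10 kb before this partner was the next strongest partner of the promoter anchor outside the locus. It held 5 and 4 PETs in STAG2-null 1 and 2 and 1 and 0 in wild-type 1 and 2. The ratio of library shares was 9.30 (exact 95% interval 1.29 to 408). As a share of distal 3q PETs the ratio was 6.44 (0.893 to 282), an interval that includes 1. Together the 2 partners held 14 and 22 against 8 and 4 PETs, a ratio of library shares of 3.10 (1.58 to 6.54). Distal 3q as a whole had a ratio of 1.44 on this scale, and this pairing too was made after the values were seen. With anchors merged within 5 kb this contact had a log2 ratio of 1.64 ± 0.47 and an adjusted p of 0.160 in edgeR on the library scale. It was not scaled by distal 3q. Contacts at 766 kb (4, 2, 1 and 2 PETs in the order STAG2-null 1 and 2, wild-type 1 and 2), at 1431 kb (1, 2, 2 and 3) and at 425 kb toward SST and RTP4 (3, 0, 1 and 2) were sparser still. The pair between the 2 anchors of the locus held 2, 3, 2 and 4 PETs.

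Over all 7 loops, 0 passed the adjusted threshold in edgeR, and without adjustment (p under 0.05) 3 were higher and 0 lower, where 4.81% of all loops were higher and 4.88% lower. DESeq2 called 0, and 0 unadjusted. With distal 3q as the library size 1 of 7 was higher unadjusted, the HES1 loop at 239.7 kb. The median log2 ratio of the 7 was 0.50, against -0.04 for all tested loops. On the library scale both STAG2-null libraries lay above both wild-type ones in 4 of the 7, against 22.7% of all loops. On the distal 3q scale they did so in 0 of the 7, against 32.3% of the 93 loops of distal 3q.

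The authors' own comparison named 3 of these contacts. It rests on libraries of this same series and is not separate evidence. Their deposited table of 650 differential loops, 350 of them stronger in the mutant, lists the HES1 loop at 239.7 kb (log2 of wild-type over mutant -1.65, adjusted p = 0.0424 by independent hypothesis weighting) and the HES1 contact at 171 kb (-2.65, 0.0426). It also lists the BCL6 loop at 1213 kb (-1.26, 0.0841). The largest adjusted p listed there, by the same weighting, is 0.0998, so the list reaches past the 0.05 used here. All 3 are marked there as stronger in the mutant, as are 1.54% of the 22680 high-confidence loops. A status column of the authors' deposited table reads DN for HES1 and UP for BCL6, and its header does not say what the status compares. The high-confidence loops of the authors' deposited table include 11 HES1 and 2 BCL6 contacts.

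The lengths of the contacts set the 2 loci apart from each other in every library. Pairs over 500 kb took 74.6% and 76.6% of BCL6 PETs in STAG2-null 1 and 2 and 71.4% and 74.0% in wild-type 1 and 2. At HES1 they took 10.3%, 8.65%, 7.21% and 11.5% in the same order, and in distal 3q as a whole between 21.5% and 23.4%. HES1 PETs lay mostly at 100 to 500 kb, with 63.5% and 61.6% in STAG2-null 1 and 2 and 61.3% and 54.0% in wild-type 1 and 2, against 35.9% to 37.3% in distal 3q. BCL6 held 13.0% to 17.1% of its PETs in that class. Under 20 kb, HES1 held 9.91% to 15.9% of its PETs and BCL6 at most 1.49%, 2 PETs in all.

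In the classes under 20 kb, of 100 to 500 kb and over 500 kb, shares lay closer together between genotypes than between the loci. Pairs of 20 to 100 kb took 14.1% and 15.1% of HES1 PETs in STAG2-null 1 and 2 and 21.6% and 18.6% in wild-type 1 and 2, a difference of -5.48 percentage points. At BCL6 the same class differed by -2.69 percentage points, which became -0.518 with the locus widened by 10 kb and -4.38 with pairs of at least 2 PETs in a library, and in distal 3q at 20.9% ± 0.0869 against 23.1% ± 0.663 (SD, n = 2). Over all pairs of the series this class took 26.4% ± 0.171 in STAG2-null and 28.1% ± 0.264 in wild-type libraries (SD, n = 2). The groups lay apart at HES1, at BCL6, in distal 3q and over all pairs. An exact two-sided permutation test over 2 and 2 libraries gave 0.333 for each, the smallest p it allows. Toward higher coordinates, which is upstream of BCL6, went 60.0% of BCL6 PETs in STAG2-null 1, 83.8% in STAG2-null 2, 81.8% in wild-type 1 and 78.3% in wild-type 2, where STAG2-null 1 stood below the others.

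**Figure D5:**
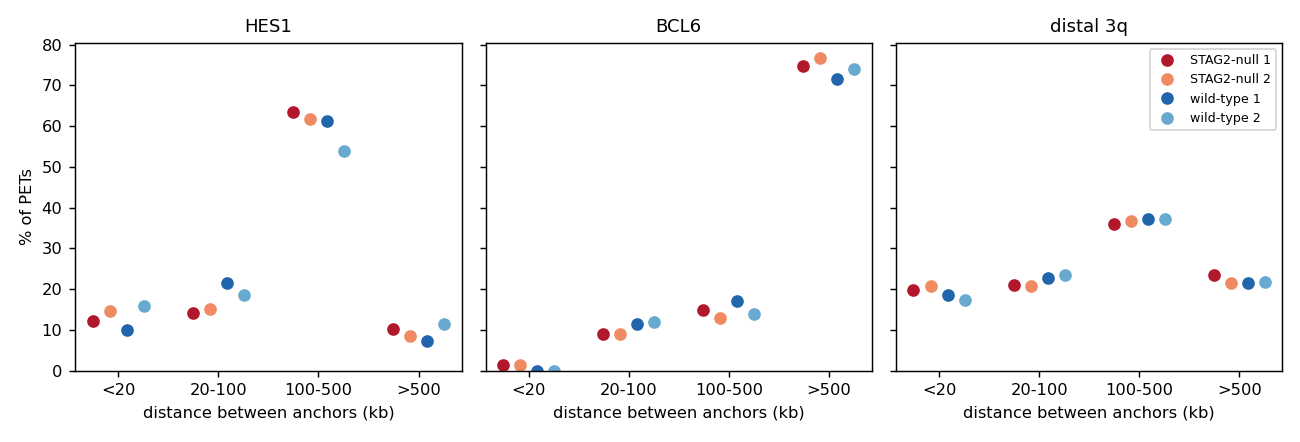
Percentage of PETs in 4 classes of distance between anchors (kb, x axis) for HES1, BCL6 and all of distal 3q; each point is a library. At least 71.4% of BCL6 PETs in each library lie over 500 kb, and at least 54.0% of HES1 PETs at 100 to 500 kb.

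Most pairs were sparse. At HES1 47 of 113 pairs and at BCL6 36 of 79 rested on 1 PET over all libraries, and 18 and 4 pairs had a PET in every library. Pairs seen in STAG2-null cells alone numbered 40 at HES1 with 68 PETs, and those seen in wild-type cells alone 26 with 31 PETs. At BCL6 these were 31 pairs with 44 PETs and 19 with 24 PETs. A pair with 1 PET is bound to be seen in 1 genotype alone. Shares of such pairs over the whole series and over distal 3q are not given here. Distal 3q as a whole had a ratio of library shares of 1.44. The counts are therefore not read as a trait of the loci. Of the pairs seen in 1 genotype alone, the one with most PETs joined the HES1 promoter anchor to positions 194063795 to 194066118, with 3 and 3 PETs in STAG2-null 1 and 2 and 0 and 0 in wild-type 1 and 2. The lower bound of its exact 95% interval was 1.22 for the ratio of library shares and 0.843 for that of distal 3q shares. It was singled out after its values were seen, and no other such pair held more than 4 PETs. No pair joined HES1 to BCL6: their promoter anchors lie 6.39 Mb apart, and the deposited files list no pair longer than 2.0 Mb.

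Other genes of the Notch pathway could be placed at few anchors, through gene names in the authors' deposited table, which holds loops picked for change. Of 52 genes listed 4 had an anchor, with 1 higher, 0 lower and a median log2 ratio of 0.42, against 0.412% higher, 0.548% lower and a median of 0.00127 for all anchors. The 1 is HES1 itself, and 0 of the other 3 passed. TLE2, a Groucho-type corepressor gene of HES proteins, held 65, 73, 42 and 45 PETs (0.70 ± 0.22, adjusted p = 0.0822 in edgeR). HES7, a HES1 relative of the segmentation clock, held 299, 293, 254 and 301 (0.13 ± 0.13), and NRARP, a Notch target that dampens the signal, 135, 121, 156 and 177 (-0.34 ± 0.15, adjusted p = 0.313). Of 28 BCL6 corepressors, partners and targets 2 were placed, with 0 of 2 past the threshold, beside the same 0.412% and 0.548% of all anchors. These were BCL6 itself at 0.71 and ZBTB16, a related BTB zinc finger gene, at -0.27 ± 0.18, which give a median of 0.22.

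Of 63 neighbouring genes of distal 3q, 3 had an anchor, again placed through the authors' deposited table of loops picked for change. Their median was 0.75, against 0.00127 for all anchors and 0.50 for the 25-kb windows of distal 3q. Of these genes 1 was higher and 0 lower, beside 0.412% and 0.548% of all anchors. FAM43A rose, from 87.4 ± 3.95 to 148 ± 18.2 PETs per 1000000 (SD, n = 2; log2 0.75 ± 0.19, adjusted p = 0.0160 in edgeR), and stood at 0.22 with distal 3q as the library size. LSG1, a ribosome assembly GTPase gene (0.62 ± 0.21), and MAP3K13 (0.85 ± 0.36) did not pass on the library scale. With distal 3q as the library size LSG1 stood at 0.10 and MAP3K13 at 0.34.

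Among 219 placed genes with enough PETs, the profile over the 4 libraries closest to that of the HES1 locus was that of CAV1 on chromosome 7, at a root mean square distance of 0.0357 log2 units after centring. It held 429 and 490 PETs per 1000000 in STAG2-null 1 and 2 and 302 and 285 in wild-type 1 and 2. TLE2 (0.0481) and RGS4 (0.0860) followed. For BCL6, among 258 genes, GPR3 (0.0809), AHCYL2 (0.0869) and FAM43A (0.0870) were closest. These likenesses rest on 4 libraries and on genes picked by the authors for change.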

How the data were processed

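Per the submitters' processing notes, reads were handled with HiC-Pro on hg19, without versions. Per the file headers a false discovery rate came from mango; its settings were not found. The authors deposited per library a count of PETs and a p-value for each anchor pair with at least 1 PET (the p-value was not used). Their tables of high-confidence and differential loops, per the file headers, hold counts, a log2 fold change and p-values; 0 columns belonged to other samples.

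Pairs were joined over the 4 libraries. Features with at least 20 PETs were tested on genotype alone with edgeR 4.0.16 in R 4.3.3 (robust quasi-likelihood fit, legacy setting), using library totals and TMM factors or, for the regional scale, the distal 3q total, with Benjamini-Hochberg adjustment at 0.05. A 25-kb window counts pairs with an anchor midpoint in it. DESeq2 1.42.0 was an alternative. Fits were tested on simulated data. Exact binomial intervals of PET ratios cover counting error only; those of log2 ratios come from the SE of the fit.

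Genes were placed where 1 anchor of a loop is flagged as promoter (251 of 405 names), then by elimination (268). Named were both genes, all loops or the 8 strongest pairs, strongest partners, called anchors, the authors' loops, placed list genes that passed or had most PETs, and the 3 closest profiles. Members and lists were chosen with earlier results of these data known.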

Additional observations from a re-analysis of the deposited data

How the results depend on the processing

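The library-scaled ratio of HES1 kept its direction under all alternatives run, and that of BCL6 under all that gave an adjusted p. Both calls were lost where the region set the scale. HES1 stood at 0.12 with distal 3q PETs as the library size and 0.18 with its sparse pairs, and BCL6 at 0.28 and 0.34. DESeq2 gave 0.64 for HES1, short of the threshold, and no adjusted p for BCL6. Leaving out 1 library gave 0.54 to 0.75 for HES1 and 0.68 to 0.97 for BCL6 on the library scale, none past the threshold, and 0.03 to 0.21 and 0.15 to 0.45 on the regional scale. On the regional scale the other alternatives gave 0.06 to 0.18 for HES1 and 0.24 to 0.34 for BCL6. Of the 4 anchors, 1 was called except with distal 3q as the library size, in DESeq2 and without any 1 library, where 0 were called. Over the whole series, the count of called anchors, 249 higher and 331 lower, was 93 and 135 with pairs at least 20 kb apart, 1 and 6 in DESeq2 and 28 and 49 or fewer without 1 library, and 37 and 10315 with distal 3q as the library size. Windows, 363 and 521, were 24 and 9215 with distal 3q as the library size, 35 and 7761 with its sparse pairs, 23 and 89 in DESeq2 and 57 and 101 or fewer without 1 library. Loops, 11 and 15, were 11 and 5 without TMM factors, 6 and 318 with distal 3q as the library size, 6 and 4 from 10 PETs, 4 and 5 from 20 kb, 2 and 3 when merged, 0 and 0 in DESeq2 and 3 and 4 or fewer without 1 library.

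The sign of weak HES1 loops turned: the 353-kb loop to -0.13 and the 49.2-kb loop to -0.065 with distal 3q as the library size, and the 66.4-kb loop to 0.045 without TMM factors and 0.084 with pairs at least 20 kb apart. Without 1 library the 353-kb loop ranged from -0.36 to 0.73, the 177-kb loop from -0.081 to 1.23 and the 66.4-kb loop from -1.27 to 0.57. The cause was not tested. Some differences in BCL6 shares moved by more than the replicate SD with pairs of at least 2 PETs in a library and with widened loci. With pairs of at least 2 PETs in a library they were 0 percentage points under 20 kb, -4.38 at 20 to 100 kb and 2.90 at 100 to 500 kb. With loci widened by 10 kb they were 0.787, -0.518, -5.17 and, over 500 kb, 4.90. Leaving out 1 library gave 1.30 to 1.49 under 20 kb, against 1.40 with all libraries, where the STAG2-null SD was 0.137.

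The libraries share replicate numbers across genotypes, and deviations of same-numbered libraries correlated at 0.00286 over 11872 loops. With loops counted from 20 PETs over 4 libraries, counting error could hide a small shared effect. A shared preparation of same-numbered libraries was thus neither shown nor excluded. With the replicate number as a block HES1 stood at 0.64 and BCL6 at 0.81 on the library scale, 0.12 and 0.28 on the regional scale, and 1 anchor and 0 loops were called, as without it. Of the 192 pairs, 7 reached 20 PETs.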
